A study of Mus musculus with 8 samples.

Results

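The genes described here encode the proteins of the cytosolic ribosome and their close paralogues, measured by bulk RNA sequencing in whole E18.5 hearts of mice. They were taken by symbol: protein-coding genes named Rpl or Rps followed by a number, Rpsa, and the stalk proteins Rplp0, Rplp1 and Rplp2, kept where at least 4 libraries held 10 or more counts. Of 49315 genes in the count files, 81 met this rule. They comprise 30 proteins of the small subunit, 43 of the large subunit, 3 of the stalk, and 5 paralogues (Rpl3l, Rpl7l1, Rpl22l1, Rpl36al and Rps27l) that are treated apart. The rule leaves out ribosomal proteins encoded under other symbols, such as Fau and Rps3a1. The mutant group was 4 hearts with the genotype CHD4 M195I/M195I, and 4 WT hearts formed the control group. The labels name no transgene, Cre driver or treatment, and they do not say whether the hearts came from separate litters. The p-values set the difference between genotypes against the spread between these samples, part of which may be technical. Hearts of a genotype may not be independent, and litter may coincide with genotype.

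Each ribosome needs a single copy of almost every one of these proteins, apart from the stalk proteins Rplp1 and Rplp2, and dividing cells spend a large share of their transcription on making them. Their mRNAs begin with a C followed by a run of pyrimidines, the 5′ terminal oligopyrimidine (TOP) tract, through which the kinase mTOR and the binding protein LARP1 set their translation. Some paralogues replace or accompany the parent protein in particular tissues. Rpl3l is the striated muscle form of Rpl3, Rpl10l is a testis form of Rpl10, and Rpl22l1 and Rps27l accompany Rpl22 and Rps27. CHD4 itself is an ATPase that moves nucleosomes and forms the motor of the NuRD complex. The comparison asks whether the levels of these transcripts differ between mutant and WT hearts.

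Library totals were 18673488 to 21341235 counts in mutants and 18375951 to 20815388 counts in WT. Counts per gene cannot show the M195I substitution. The Chd4 transcript itself was at 482 ± 8.48 CPM (counts scaled to library size) in mutants and 452 ± 6.37 CPM in WT (SD, n = 4 each), a log2 fold change of 0.09 ± 0.03 (SE) that did not pass (edgeR adjusted p = 0.0945). All 7 cardiomyocyte markers had counts in every library, and their summed level was 43580 to 48449 CPM of library totals in mutants and 50239 to 54958 CPM in WT. The 7 erythroid markers summed to 1261 to 1987 CPM in mutants and 2010 to 3801 CPM in WT, and the ranges of both sums did not overlap between the genotypes. The cardiomyocyte markers differed among themselves. Actc1 was at 7948 to 8920 CPM in mutants and 10312.5 to 11851 CPM in WT. Tnnt2, at 6748 to 7469 CPM in mutants and 6751 to 7352 CPM in WT, overlapped. By edgeR 1 of the 7 was lower (14.3%, against 7.49% of all genes), and all 7 estimates were negative under TMM. The 8 airway and lung markers, of which 4 had counts in every library, ranged from 0.984 to 785 CPM in mutants and from 1.87 to 492 CPM in WT. Of 8 skeletal muscle markers, Myod1 was at 0 in all libraries, and the sums were 68.6 to 90.4 CPM in mutants and 95.1 to 105 CPM in WT, mostly Acta1 and Myh8. Of the 3 brown fat markers, the defining Ucp1 was at 0 in 6 of 8 libraries, and nearly all of the sum was Fabp4, which is not specific to brown fat, at 250.5 to 256 CPM in mutants and 283 to 314 CPM in WT. The 5 thymocyte markers summed to at most 2.13 CPM in any library. In whole hearts, fewer cells of a type and less RNA per cell cannot be told apart.

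The windows below show the annotated starts of the 3 genes whose transcripts differed between the genotypes (Rps12, Rps28 and Rpl41) and of 4 members with a clear TOP tract. Each holds 10 bases before the annotated start and 20 from it onwards, from RefSeq on GRCm38.p6, read 5′ to 3′ on the strand of the gene. Capitals mark the longest run of C and T that begins with C and has at least 5 letters.
Rps12, chr10:23787190-23787219, minus strand: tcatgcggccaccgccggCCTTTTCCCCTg
Rps28, chr17:33824543-33824572, minus strand: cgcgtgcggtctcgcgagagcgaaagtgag
Rpl41, chr10:128549149-128549178, minus strand: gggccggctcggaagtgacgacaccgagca
Rps6, chr4:86857348-86857377, minus strand: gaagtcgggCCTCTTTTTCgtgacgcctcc
Rps15a, chr7:118116128-118116157, minus strand: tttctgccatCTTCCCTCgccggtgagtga
Rpl35, chr2:39005112-39005141, minus strand: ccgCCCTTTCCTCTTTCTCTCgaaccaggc
Rpl15, chr14:18270967-18270996, minus strand: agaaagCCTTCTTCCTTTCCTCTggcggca
In Rps6 the run began 1 base before the annotated start, and in Rps12 it began 8 bases after it. Rps28 and Rpl41 held no such run in these 30 bases, which says only that these letters are not in this window.

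RefSeq held 73 windows of 300 bases (250 before the start, 50 from it) for 61 of the 81 members. A C followed by 4 pyrimidines stood at the annotated start in 17.8% of the members' windows, against 2.51% of 32851 windows of all genes. Within 5 bases of the start it was present in 42.5% of the members' windows, against 18.3% of all windows. The motif CTCTTT, on either strand and anywhere in the 300 bases, was in 43.8% of the members' windows and 23.0% of all windows. Read forward from 50 bases before the start, it was in 30.1% of the members' windows and 3.99% of all windows. The motif CGGAAG, the core of sites bound by ETS-family factors, was on either strand in 60.3% of the members' windows and 16.9% of all windows. CTCTTT and the reverse complement of CGGAAG both begin with a C followed by pyrimidines, so matches near the start can be shared with the TOP search. The 27 members with a TOP tract within 5 bases of the start, paralogues left out, had a median log2 fold change of -0.07 between mutant and WT hearts, and the 29 without had a median of -0.07.

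Per transcript length, the 76 members other than the paralogues spanned a 24.8-fold range around a median of 603 TPM (counts scaled by gene length and by the library sum). Rplp1, an acidic protein of the stalk that recruits elongation factors, was the most abundant, at 3141 ± 113 TPM in mutants and 3257 ± 69.0 TPM in WT (SD, n = 4 each). Rps12 followed at 2177 ± 88.6 TPM in mutants and 2271 ± 60.9 TPM in WT. Rpl8, a large subunit protein close to the peptidyl transferase centre, was at 1965 ± 36.0 TPM in mutants and 1916 ± 26.1 TPM in WT. The stalk base Rplp0 was at 1817 ± 54.5 TPM in mutants and 1773 ± 40.4 TPM in WT, and Rps26 of the small subunit was at 1804 ± 71.7 TPM in mutants and 1761 ± 62.6 TPM in WT, so that Rplp0 and Rps26 could not be told apart within their spread. At the low end stood 3 paralogues, Rpl22l1 at 94.7 ± 3.495 TPM in mutants and 97.4 ± 4.24 TPM in WT, Rpl7l1 at 93.2 ± 2.92 TPM in mutants and 92.3 ± 2.26 TPM in WT, and Rpl3l at 3.55 ± 0.84 TPM in mutants and 4.41 ± 0.59 TPM in WT. Together the 81 genes made up 5.71% of the summed TPM in mutants and 5.70% in WT. The lengths are those of merged gene models in the count files, which for several members are far longer than the coding mRNA (6270 bases for Rps15a), so the order by TPM depends on the annotation.

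**Figure D1:**
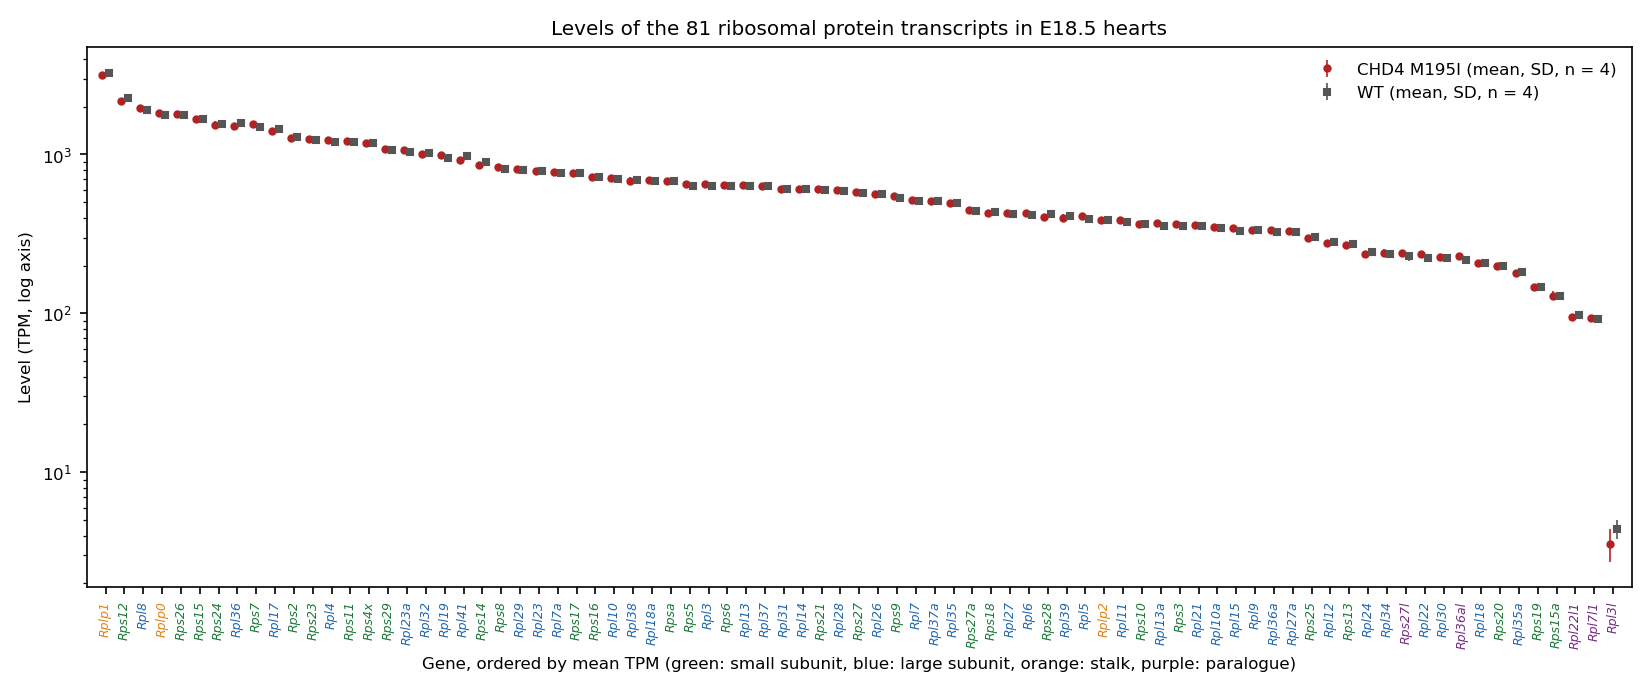
Level of each of the 81 transcripts in TPM on a log axis, ordered by mean, as mean and SD of 4 CHD4 M195I hearts (red circles) and 4 WT hearts (grey squares). The 2 genotypes lie close together at every gene, and Rpl3l, at 3.55 TPM in mutants and 4.41 TPM in WT, stands far below the rest.

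Between mutant and WT hearts, transcripts of the cytosolic ribosome differed little. Of the 81 members, 3 were lower in mutants (Rpl41, Rps12 and Rps28, by 0.14 to 0.15 on the log2 scale) and 0 were higher at an adjusted p under 0.05 (edgeR quasi-likelihood test with Benjamini-Hochberg adjustment over 16372 genes). Over all genes tested, 7.49% were lower, 5.75% were higher and 13.2% were called in either direction. The members' 3.7% called lower was below the share over all genes, but it rests on 3 genes and the order depends on the threshold. At an unadjusted p under 0.05, 15 of the 81 members were lower, a larger share than the 14% of all genes. At that threshold 0 members were higher, against 12.4% of all genes. Among the alternatives run, only the fit with the replicate number as a block put the members above all genes (9.88% lower against 8.75%). DESeq2 and limma-voom also called 0 members higher.

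Rpl41, a very short basic peptide of the large subunit, had 343, 352, 328 and 356 CPM scaled by TMM (trimmed mean of M-values) in the 4 mutant hearts, against 363, 398, 382 and 389 CPM in the 4 WT hearts. Every mutant library was below every WT library. The log2 fold change was -0.15 ± 0.04 (SE; edgeR adjusted p = 0.0222). Rps12, a small subunit protein with snoRNA genes in its introns, had 343, 332, 312 and 332 CPM in mutants, against 366, 374, 344 and 368 CPM in WT. Its groups did not overlap either, with mutant library 1 just under WT library 3, and the log2 fold change was -0.14 ± 0.04 (edgeR adjusted p = 0.0361). Rps28, a small subunit protein near the mRNA exit, had 190.9, 194.9, 176.2 and 185.8 CPM in mutants, against 203.1, 222.8, 194.6 and 209.0 CPM in WT. Here mutant library 2 lay slightly above WT library 3, and the log2 fold change was -0.15 ± 0.05 (edgeR adjusted p = 0.0443). Exons of Rps12 overlap 3 annotated snoRNAs on the same strand and those of Rps28 overlap the gene Kank3 on the opposite strand. Whether strand was used in counting is not stated in the labels or headers, and their counts could hold reads of these neighbours.

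These 3 calls rested on a small margin. With libraries scaled by their totals in place of TMM, 0 members were called by edgeR in either direction (5.24% of all genes were then lower and 11.3% higher), and Rpl41, Rps12 and Rps28 were the 3 members at an unadjusted p under 0.05. Without mutant library 3 and without WT library 4, 0 members were called. Without mutant library 4, WT library 1 or WT library 2, 1 member was called in each case.

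Groups were also apart, with every mutant library below every WT library, for Rplp1, Rps14 and Rpl36, which did not pass the test. With Rpl41 and Rps12 these are 5 members, or 6.17% of the 81, against 9.77% of all genes tested. No member had every mutant library above every WT library, against 8.8% of all genes, which makes 18.6% of all genes apart in either direction. Rplp1 had 516, 514, 477 and 487 CPM in mutants, against 535, 583, 524 and 540.5 CPM in WT (log2 fold change -0.13 ± 0.04, edgeR adjusted p = 0.0594). It passed by DESeq2 (adjusted p = 0.0221), with upper quartile scaling (0.0483), with a filter of 1 CPM in all libraries (0.0415) and with the airway markers below as a covariate (0.0122), whereas without 1 library its edgeR adjusted p was 0.0557 to 0.215. Rps14 and Rpl36, named after their values were seen, had log2 fold changes of -0.12 ± 0.04 and -0.13 ± 0.05 (edgeR adjusted p = 0.0674 and 0.0726). Rps14 is a small subunit protein whose loss is linked to a form of myelodysplastic syndrome in humans.

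The other stalk and reference members lay closer to 0. Rplp0 had a log2 fold change of -0.04 ± 0.04 and Rplp2, the partner of Rplp1, one of -0.07 ± 0.05 (edgeR adjusted p = 0.558 and 0.432). Rpsa, which doubles as the laminin receptor, was at 686 ± 23.1 CPM in mutants and 725 ± 40.3 CPM in WT (-0.08 ± 0.04, edgeR adjusted p = 0.298). Rps6, the small subunit protein phosphorylated by S6 kinase, was at 325 ± 8.92 CPM in mutants and 336 ± 12.3 CPM in WT (-0.05 ± 0.04, edgeR adjusted p = 0.488). Rplp0 and Rps6, like Rpl8 (-0.04) and Rps26 (-0.04), had a positive sign when libraries were scaled by totals (0.01 for each).

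Across the family the estimates were small and on one side under TMM. Of the 81 log2 fold changes 80 were negative, and only that of Rpl22 (0.01) was not, while 50% of all genes were negative. With library totals 53 were negative. The median over the members was -0.07 against -8.0e-06 over all genes under TMM, and -0.01 against 0.05 with library totals, so that the members' median minus that of all genes was -0.07 under both scalings. By subunit, the median under TMM was -0.07 in the small subunit (2 of 30 called lower), -0.06 in the large subunit (1 of 43 called lower) and -0.07 in the stalk (0 of 3 called, 1 at an unadjusted p under 0.05). The genes are not independent observations. Their deviations from the genotype mean had a median pairwise correlation of 0.83 over the 8 libraries, which share depth and scaling.

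**Figure D2:**
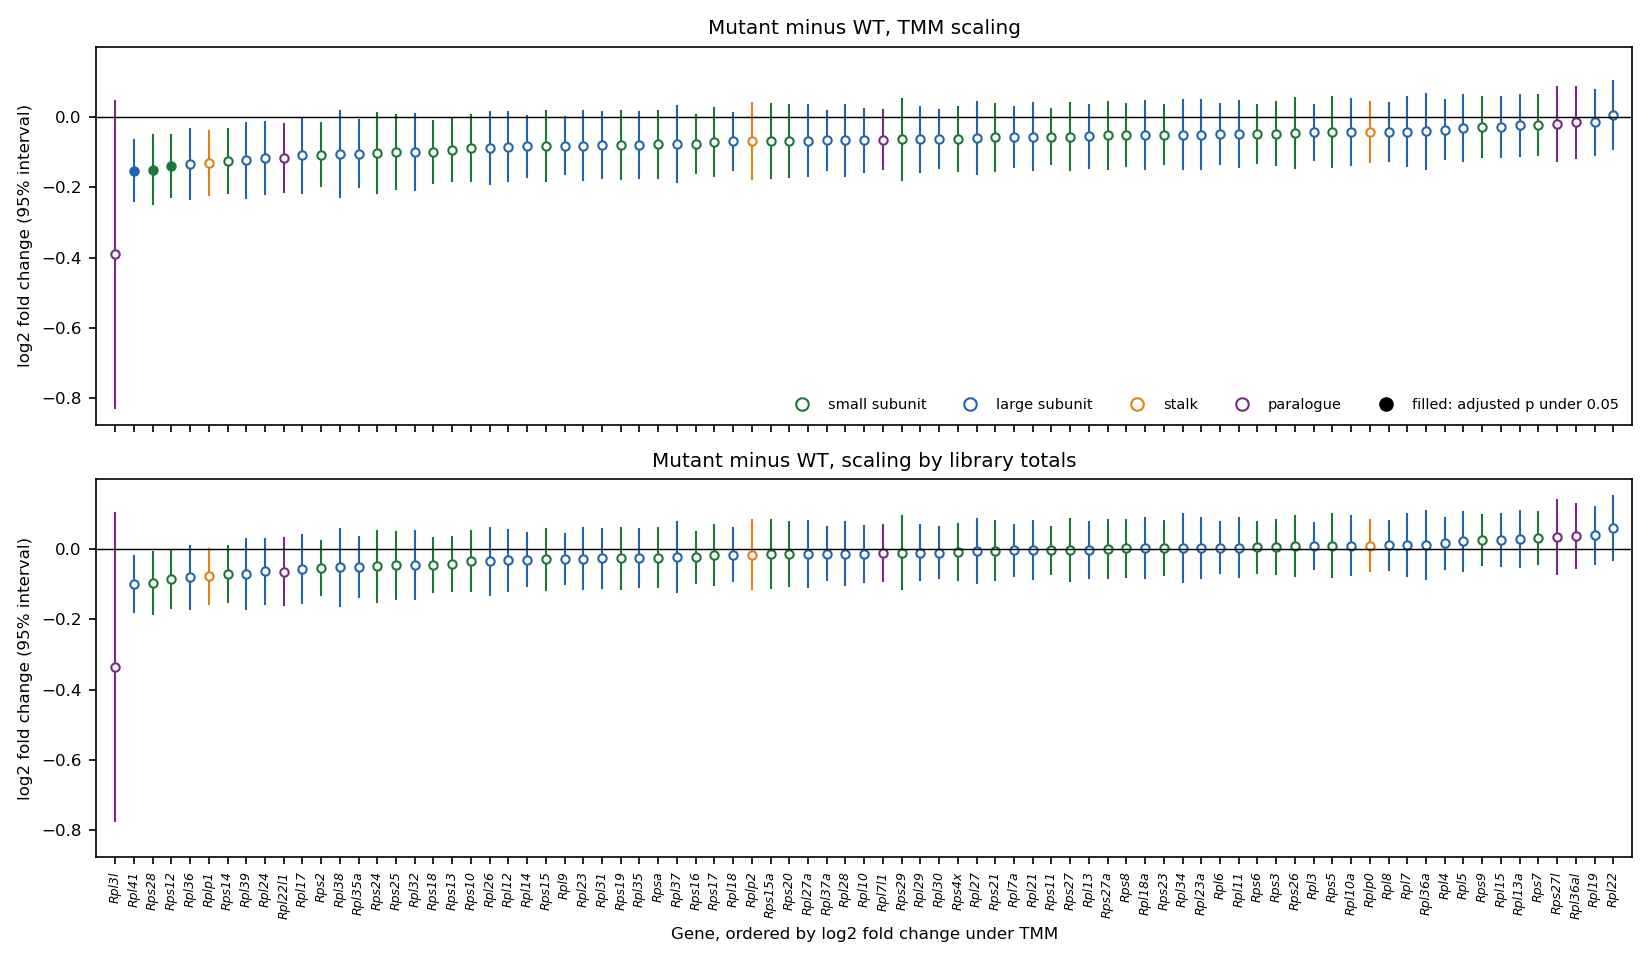
Log2 fold change, mutant minus WT, of each of the 81 members with its 95% interval, under TMM scaling (top) and with library totals (bottom), ordered by the value under TMM and coloured by subunit, with filled symbols at an adjusted p under 0.05. Under TMM 80 of 81 estimates lie below 0 and 3 are filled, whereas with library totals 53 lie below 0 and none is filled.

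The intervals were taken gene by gene, without adjustment for the number of genes, and depend on the scaling used. They do not bound the members as a set. Under TMM the 95% intervals of the 76 members other than paralogues ran from -0.25 at the lowest to 0.10 at the highest, and all 76 lay within 0.25 of 0 on the log2 scale. In 62 of them the interval included 0 and in 14 (18.4%) it lay below 0, which is an unadjusted p under 0.05, as 14% of all genes had on that side. With library totals the bounds were -0.18 and 0.15. Within a genotype the SD of a member's CPM was 3.58% of its mean in mutants and 5.20% in WT, as medians over the 76 genes.

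Single libraries set much of the family's position. The mean log2 deviation of the 76 members from their own mean over 8 libraries was -0.02, 0.01, -0.09 and -0.03 in mutant libraries 1 to 4, against 0.01, 0.13, -0.03 and 0.04 in WT libraries 1 to 4. Mutant library 3 was the lowest and WT library 2 the highest, and the other 6 overlapped. Group means were -0.03 ± 0.04 in mutants and 0.03 ± 0.07 in WT under TMM, and -0.01 ± 0.04 in mutants and 0.01 ± 0.05 in WT with library totals (SD, n = 4 each). The members held 2.67 ± 0.07% of all counts in mutants and 2.70 ± 0.08% in WT. That difference of -0.03 percentage points became 0.01 both without mutant library 3 and without WT library 2, and the members' median log2 fold change was -0.04 and -0.03 in those fits.

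Airway RNA differed between these libraries. Scgb3a2, a secretoglobin of airway secretory cells, was at 284 CPM of the library total in mutant library 3 and 436 CPM in WT library 3, the lowest library of each genotype for the ribosomal proteins. It was at 0.328 CPM in mutant library 2 and 0.817 CPM in WT library 2, the highest of each genotype. In mutant libraries 1 and 4 it was at 6.48 and 498 CPM. Their ribosomal proteins had mean log2 deviations of -0.02 and -0.03 under TMM, and of 0.002 and 0.01 with library totals. In WT libraries 1 and 4 it was at 385 and 176 CPM. Their deviations were 0.01 and 0.04 under TMM, and -0.01 and 0.01 with library totals. With the airway markers as a covariate the members' median was -0.07, and 8 members (9.88%) were called lower, against 10.1% of all genes. The 5 libraries with at least 10 CPM of Scgb3a2 were mutant libraries 3 and 4 and WT libraries 1, 3 and 4. They include mutant library 3, the lowest of all 8 for the ribosomal proteins. Among these 5 the median was -0.06, and 5 members (6.17%) were called lower, against 6.33% of all genes. Among the 3 below that level it was -0.13, but these are 2 mutant libraries and WT library 2 alone, the highest of all 8, so that this value describes that library.

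**Figure D3:**
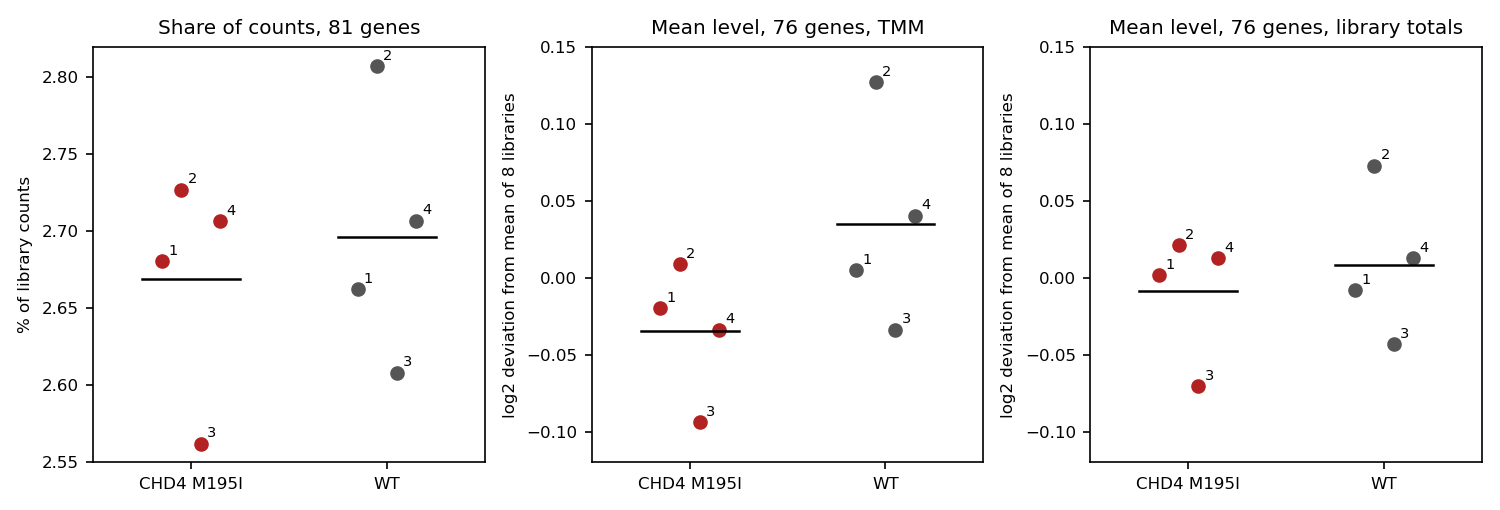
Share of library counts held by the 81 members in percent (left), and mean log2 deviation of the 76 members other than paralogues under TMM (middle) and with library totals (right), for 4 CHD4 M195I and 4 WT hearts, with the replicate number beside each point and a line at the group mean. Mutant library 3 is lowest (2.56% of counts) and WT library 2 highest (2.81%) in every panel, the other libraries overlap, and the gap between the group means is smaller with library totals.

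The paralogues were set against their parent genes within each library, a ratio that no library scaling can change. Of the 6 pairs in which both genes were tested, 0 passed (exact two-sided permutation test over 70 assignments, smallest possible p = 0.0286, Benjamini-Hochberg over 6 pairs), and 0 had an unadjusted p under 0.05. A single pair at the smallest p would have an adjusted p of 0.171, and 4 of the 6 would have to reach it for any to pass, so the adjusted test could hardly pass. The differences nearest to the threshold were those of Rpl22l1 and of Rps4l, both at p = 0.0571 (exact permutation test, adjusted p = 0.171), and they pointed in opposite directions. In all 6 pairs the libraries of the 2 genotypes overlapped.

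Rpl22l1, the paralogue of the RNA-binding protein Rpl22, had 59.3, 63.2, 57.3 and 59.8 CPM in mutants, against 64.2, 66.1, 67.7 and 61.9 CPM in WT. WT library 4 fell within the range of the mutants, and the log2 fold change was -0.12 ± 0.05 (edgeR adjusted p = 0.105). Its parent Rpl22 was at 219 ± 10.4 CPM in mutants and 218 ± 10.9 CPM in WT (0.01 ± 0.05, edgeR adjusted p = 0.964). Counts of Rpl22l1 were 26.3%, 27.9%, 28.1% and 27.3% of those of Rpl22 in mutants, against 28.7%, 29.4%, 33.6% and 28.0% in WT, a difference of -0.12 in the log2 ratio. WT library 3 stood apart as the highest, and without it the difference was -0.07. Exons of Rpl22l1 overlap an annotated antisense gene. The start of Rpl22l1 had an 8-letter pyrimidine run, whereas the first of the 2 annotated starts of Rpl22 had none of at least 5 letters.
Rpl22, chr4:152325716-152325745, plus strand: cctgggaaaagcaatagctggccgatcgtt
Rpl22l1, chr3:28805498-28805527, plus strand: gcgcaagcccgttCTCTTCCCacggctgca

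Rpl3l was the member nearest to the count minimum, with 25, 38, 46 and 41 counts in mutants, against 36, 55, 48 and 48 counts in WT. The ranges overlapped, and the log2 fold change was -0.39 ± 0.20 (95% interval -0.83 to 0.05, edgeR adjusted p = 0.246). It was the lowest estimate of the 81 and the least precise, and it ran from -0.26 without mutant library 1 to -0.52 without mutant library 3. Rpl3 itself, a core protein near the peptidyl transferase centre, was at 644 ± 10.03 CPM in mutants and 664 ± 19.7 CPM in WT (-0.04 ± 0.04, edgeR adjusted p = 0.501). Counts of Rpl3l were 0.289 ± 0.071% of those of Rpl3 in mutants and 0.366 ± 0.046% in WT (p = 0.143, exact permutation test, adjusted p = 0.286). Just outside the minimum, Rpl39l had 1, 1, 2 and 3 counts in mutants and 0, 0, 2 and 2 counts in WT, and Rpl10l had 0 counts in all 8 libraries, where up to 3 counts per library cannot be told from 0. Their parents Rpl39 and Rpl10, both on chromosome X, were at 181 ± 10.9 and 463 ± 16.3 CPM in mutants and at 198 ± 10.96 and 484 ± 22.3 CPM in WT, and neither was called (edgeR adjusted p = 0.123 and 0.354). With the airway markers as a covariate Rpl39 passed (-0.12, adjusted p = 0.0483).

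The remaining pairs showed ratios with heavily overlapping libraries. Counts of Rps27l, a p53 target in human and mouse cells, were 32.4 ± 1.77% of those of Rps27 in mutants and 31.6 ± 2.83% in WT (p = 0.6, exact permutation test). Rpl36al, whose exons overlap a protein-coding gene on the same strand, stood at 56.2 ± 3.88% of Rpl36a in mutants and 55.1 ± 3.65% in WT (p = 0.629, exact permutation test). Rpl7l1 stood at 17.4 ± 1.248% of Rpl7 in mutants and 17.7 ± 0.81% in WT (p = 0.714, exact permutation test). The log2 fold changes of Rps27l, Rpl36al and Rpl7l1 were -0.02 ± 0.05, -0.02 ± 0.05 and -0.06 ± 0.04, and those of Rps27, Rpl36a and Rpl7 were -0.06 ± 0.04, -0.04 ± 0.05 and -0.04 ± 0.05. None passed, and the signs of Rps27l, Rpl36al, Rpl36a, Rpl7 and Rpl3 were positive with library totals (0.03, 0.04, 0.01, 0.01 and 0.01).

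Rps4l matches the symbol rule but is annotated as a transcribed processed pseudogene and is not a member. Its counts were 8.94%, 9.93%, 9.17% and 8.58% of those of its parent Rps4x in mutants, against 7.97%, 8.25%, 7.70% and 8.64% in WT. Mutant library 4 lay just under WT library 4, and the difference in the log2 ratio was 0.17. Reads from Rps4x can align to such a copy, and neither labels nor headers state how reads with several alignments were counted. The same holds for the 60 members with at least 1 pseudogene named after them.

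**Figure D4:**
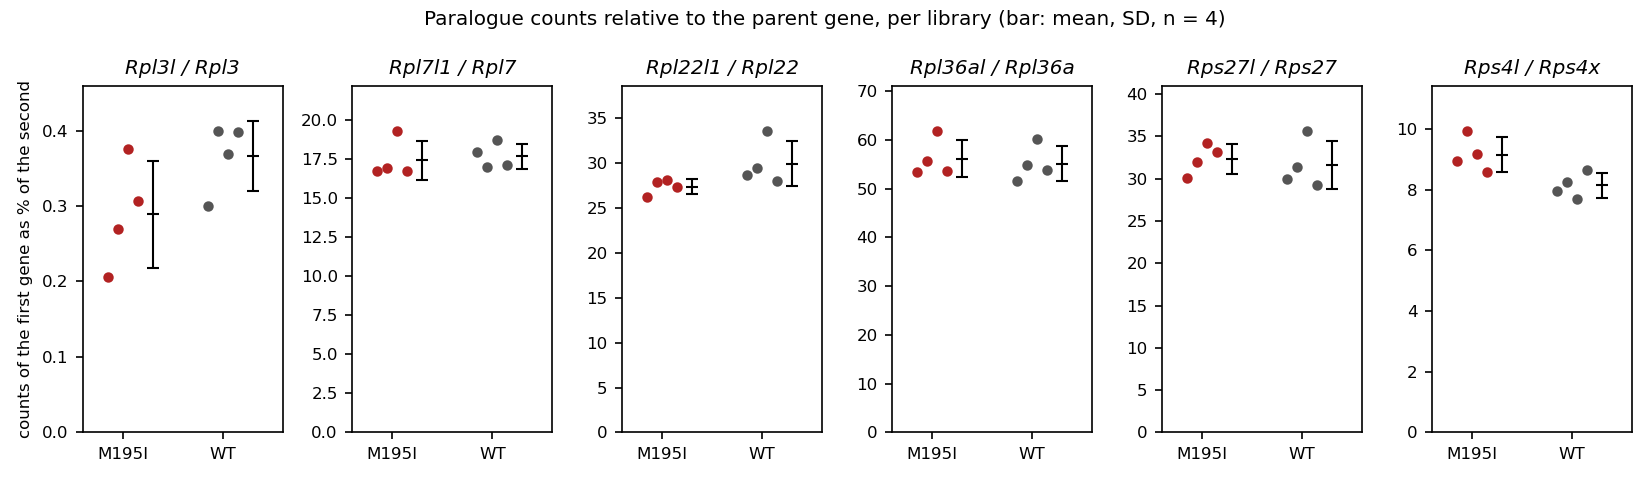
Counts of each paralogue as a percent of the counts of its parent gene, per library, for 4 CHD4 M195I and 4 WT hearts, with mean and SD beside the points and axes from 0. The genotypes overlap in all 6 pairs, with means of 27.4% in mutants and 29.9% in WT for Rpl22l1 and of 9.16% in mutants and 8.14% in WT for Rps4l.

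Genes that work around the ribosome were read from the same fit over 16372 genes, of which 7.49% were lower and 5.75% higher. At an unadjusted p under 0.05, 14% of all genes were lower and 12.4% higher. Of the genes outside the symbol rule, Fau, Rps3a1 and the ribosome-bound scaffold Rack1 lay with the members, at a median of -0.07 with 0 called by edgeR and 1 (Fau, -0.09 ± 0.04) lower at an unadjusted p under 0.05. Among 20 translation factors and other genes with TOP mRNAs, such as Eef1a1 and Eef2, 0 were called, 2 were lower and 1 was higher at an unadjusted p under 0.05, and the median was -0.05. Of 78 mitochondrial ribosomal proteins, which build the separate ribosome of the mitochondrion, 2 were lower (2.56%) and 1 was higher (1.28%). At an unadjusted p under 0.05, 16 of the 78 were lower, while 14% of all genes were, and 1 was higher, while 12.4% of all genes were. The median of the 78 was -0.07 (-0.01 with library totals). Mrps30 was at 24.6 ± 1.29 CPM in mutants and 28.2 ± 0.57 CPM in WT (-0.20 ± 0.05, edgeR adjusted p = 0.0261), and Mrps27 had a log2 fold change of -0.18 ± 0.05 (edgeR adjusted p = 0.0175). Neither passed with library totals (adjusted p = 0.0883 and 0.0533). Mrps30 also did not pass without mutant library 1 or 3 or WT library 1, 2 or 4 (adjusted p = 0.0534 to 0.0934), and Mrps27 without mutant library 4 or WT library 2 or 4 (adjusted p = 0.0502 to 0.0543). Mrpl49 was at 40.1 ± 1.96 CPM in mutants and 35.3 ± 0.97 CPM in WT (0.18 ± 0.05, edgeR adjusted p = 0.0227), and it did not pass without mutant library 2 or 3 or WT library 1 or 4 (adjusted p = 0.0663 to 0.0709).

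The lists for making ribosomes had medians nearer to 0 or above it. Of 46 ribosome assembly factors, 3 were higher (6.52%, against 5.75% of all genes), 0 were lower (1 at an unadjusted p under 0.05), and the median was 0.03. Ftsj3, the relative of the yeast rRNA methyltransferase Spb1, had 54.5, 52.8, 52.8 and 53.9 CPM in mutants, against 44.4, 49.8, 46.0 and 44.8 CPM in WT (0.21 ± 0.05, edgeR adjusted p = 0.00855). Heatr1, which acts in rRNA transcription and early processing, was at 28.3 ± 0.95 CPM in mutants and 24.4 ± 0.74 CPM in WT (0.21 ± 0.05, edgeR adjusted p = 0.0139). The third was Dkc1, the pseudouridine synthase, named after its values were seen (0.19 ± 0.05, edgeR adjusted p = 0.0179). At an unadjusted p under 0.05, 11 of the 46 were higher under TMM, while 12.4% of all genes were. In 6 of the 46 every mutant library was above every WT library, as in 8.8% of all genes. With library totals 12 of the 46 were called higher, while 11.3% of all genes were.

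The 15 genes for rRNA transcription by RNA polymerase I had a median of -0.01, and 0 were lower. At an unadjusted p under 0.05, 0 were lower and 2 of the 15 were higher, while 12.4% of all genes were higher. Against 7.49% of all genes lower and 5.75% higher, 1 of the 15 was higher (6.67%). It was Ubtf, the upstream binding factor of the rDNA, at 162, 161, 166 and 165 CPM in mutants, against 151, 152, 146 and 148 CPM in WT (0.13 ± 0.03, edgeR adjusted p = 0.0222), and it did not pass without mutant library 3 or WT library 1, 3 or 4 (adjusted p = 0.0526 to 0.0668). Gas5, a snoRNA host gene with a TOP transcript, was the 1 of 12 such hosts called (8.33% higher, against 5.75% of all genes). It was at 96.3 ± 5.07 CPM in mutants and 87.9 ± 0.98 CPM in WT (0.13 ± 0.04, edgeR adjusted p = 0.0448). It passed in only 1 of the 8 fits that left out a library, that without mutant library 2. With library totals 2 of the 12 were higher, while 11.3% of all genes were.

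Among 16 genes that control the synthesis of ribosomal proteins, 3 were lower (18.8%, against 7.49% of all genes) and 1 was higher (6.25%, against 5.75%). Their median was -0.05. Myc, a transcription factor that drives ribosome production, had 18.1, 24.3, 20.9 and 22.4 CPM in mutants, against 28.3, 35.2, 29.3 and 29.7 CPM in WT. No library overlapped, and the log2 fold change was -0.51 ± 0.09 (edgeR adjusted p = 0.00303), the largest of the genes in these lists that passed. Mxi1, a repressor that competes with MYC for its partner MAX, was at 58.0 ± 4.34 CPM in mutants and 71.8 ± 2.65 CPM in WT (-0.31 ± 0.05, edgeR adjusted p = 0.0014). Eif4ebp1, the mTOR target that restrains cap-dependent translation, was the third, named after its values were seen (-0.22 ± 0.05, edgeR adjusted p = 0.00744). Pdcd4, an inhibitor of translation initiation, was at 30.4 ± 1.37 CPM in mutants and 25.4 ± 2.63 CPM in WT (0.26 ± 0.07, edgeR adjusted p = 0.0227), and it did not pass without mutant library 2 or WT library 2 or 3 (adjusted p = 0.067 to 0.0691). Among the libraries with at least 10 CPM of Scgb3a2 its log2 fold change was 0.15 (edgeR adjusted p = 0.255). There Mrps27, Mrpl49, Gas5 and Mrps30 did not pass either (edgeR adjusted p = 0.102 to 0.131), whereas Myc, Mxi1, Ftsj3, Heatr1 and Ubtf did. Among the libraries below that level, with WT library 2 as the only WT, Ftsj3, Heatr1 and Ubtf had log2 fold changes of 0.11, 0.12 and 0.09. Mxi1 had one of -0.23, Mrps27 of -0.25, Mrps30 of -0.23, Mrpl49 of 0.18 and Gas5 of 0.14. With library totals 3 of the 16 were lower and 3 were higher, while 5.24% of all genes were lower and 11.3% higher. The summed erythroid, cardiomyocyte and skeletal muscle markers, given above, lay below the WT range in every mutant library, and their part in the values of the ribosomal proteins and of these lists was not tested.

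**Figure D5:**
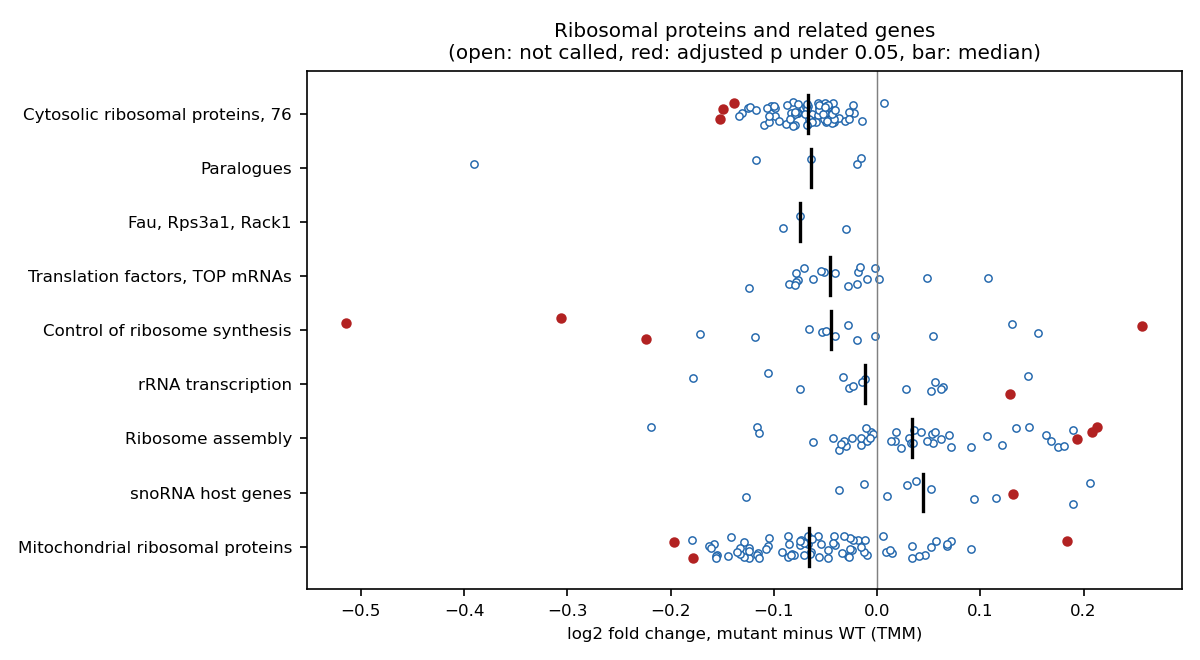
Log2 fold change, mutant minus WT under TMM, of the ribosomal proteins, their paralogues and 7 lists of related genes, with red points at an adjusted p under 0.05 and a bar at each median. The 76 ribosomal proteins form the narrowest large group, from -0.15 to 0.01, around a median of -0.07 that is -0.01 with library totals, while Myc at -0.51 and Mxi1 at -0.31 lie far to the left.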

How the data were processed

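The authors deposited unnormalized read counts for every gene, both by library and as a joint table, and 0 values differed between the 2 sources. Trizol RNA and a TruSeq kit were used, per the labels' protocols. The tools were Trimmomatic 0.36, STAR 2.5.2b and featureCounts from Subread 1.5.2 with the build GRCm38 (mm10), per the submitters' processing notes. Headers of the library files begin with "Male", per the file headers. Strand setting, treatment of reads with several alignments and annotation release were not found in labels or headers. Symbols came from GENCODE M21, which held 48970 of 49315 genes.

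All genes were fitted with the robust quasi-likelihood test of edgeR 4.0.16 in R 4.3.3 (filterByExpr with a minimum count of 10, TMM scaling, no covariate), which left 16372. The threshold was an adjusted p of 0.05 (Benjamini-Hochberg). Intervals of 95% and standard errors came from the same fit. TPM was computed from the counts and the length column of the files. Paralogue ratios had 0.5 added to both counts. Alternatives included DESeq2 1.42.0 and voom of limma 3.58.1.

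The members and all lists were chosen with earlier results of these data known. Named members were those called, the paralogues and their parents, the 5 highest and 3 lowest by TPM, the stalk proteins, Rpsa, Rps6, those beside the count minimum, and up to 2 called genes per list and direction. A gene of 1 list is not reported here. Libraries of a genotype differed from each other by a chi-square of 2.87 to 9.18 per degree of freedom, more than a second sequencing of the same library would. This check cannot tell a second library of the same heart from another heart. At the depths given, each member other than the paralogues had at least 1436 counts in every library.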

Additional observations from a re-analysis of the deposited data

Results flagged for a closer look

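In 4 of 84 groups of 4 libraries tested, a single library stood apart from the other 3 by Dixon's criterion at the 95% level, and chance alone gives this in about 1 in 20 groups. Mutant library 3 was low for Rpl39, at 165 CPM against 186 to 188 CPM in the other mutants, and for Rpl26, at 240.1 CPM against 264 to 266 CPM in the other mutants. In the same library Rpl7l1 stood at 19.3% of the counts of Rpl7, against 16.7% to 16.9% in the other mutants. WT library 3 was low for Rpl22, at 202 CPM against 221 to 225 CPM in the other WT libraries.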

How the results depend on the processing

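The direction of the members' median held under the alternatives run, from -0.09 without WT library 3 to -0.01 with library totals, and was -0.13 (also after subtracting the median of all genes) among the 3 libraries with little Scgb3a2, a split added after the data were seen whose only WT library is the highest of all 8 and is assumed to vary like the mutants. In none were members called higher. The number called lower was less stable. It was 3 as reported (3.7%, against 7.49% of all genes), 6 by DESeq2 (7.41% against 8.95%), 0 with library totals (against 5.24%), 5 under a filter of 1 CPM in all libraries (6.17% against 9.67%), 0 at an adjusted p under 0.01 (against 3.93%), 6 at one under 0.1 (7.41% against 10.2%), 8 with the airway markers as a covariate (9.88% against 10.1%), 5 among the libraries with at least 10 CPM of Scgb3a2 (6.17% against 6.33%), 1 with the trend on gene length removed (1.23% against 7.66%), and 0 to 3 when each library was left out in turn (against 5.44% to 6.86%). The cause of these changes was not tested.

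Replicate numbers are shared by the genotypes. Same-numbered libraries deviated together for numbers 2 and 3 (correlations 0.77 and 0.56), went opposite ways for number 1 (-0.52) and stood at 0.10 for number 4, and 2 of the 4 mutant libraries correlated best with their own number, so the numbers were not taken to pair the samples. With the replicate number as a block 8 members were called lower (9.88%, against 8.75% of all genes), Rplp1 and Rpl39 passed (adjusted p = 0.0208 and 0.0344) and Gas5 did not (0.0503).

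Over all genes, the number called higher was 1856 with library totals, 392 and 1427 at adjusted p under 0.01 and 0.1, 609 and 595 in libraries with more and less Scgb3a2, and 579 to 850 without 1 library. The number called lower was 644 at an adjusted p under 0.01, 812 with low Scgb3a2, and 899 to 1137 without 1 library. With library totals 0 members had mutants entirely below WT. Of all genes, 11.3% were then called higher and 5.24% lower. Calls higher became 1 for translation factors, 2 for rRNA transcription, 12 for ribosome assembly, 3 for control genes and 2 for snoRNA hosts. Calls lower became 0 for mitochondrial ribosomal proteins.

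Signs turned where estimates were near 0. With library totals the log2 fold change was 0.0088 for Rpl3, 0.011 for Rpl7, 0.012 for Rpl36a, 0.011 for Rpl8, 0.010 for Rplp0, 0.0083 for Rps26, 0.0053 for Rps6, 0.038 for Rpl36al and 0.033 for Rps27l. With the length trend removed it was 0.015 for Rpl36al, 0.010 for Rps26 and 0.019 for Rps27l, and among libraries with at least 10 CPM of Scgb3a2 it was -0.031 for Rpl22, 0.014 for Rpl36al and 0.021 for Rps27l. Leaving out single libraries gave -0.029 to 0.047 for Rpl22, -0.049 to 0.024 for Rpl36al, -0.052 to 0.011 for Rps27l and -0.077 to 0.000225 for Rpl36a. The log2 ratio difference then ran from -0.020 to 0.070 for Rpl36al to Rpl36a, from -0.073 to 0.00373 for Rpl7l1 to Rpl7, from -0.15 to -0.07 for Rpl22l1 to Rpl22, from -0.498 to -0.213 for Rpl3l to Rpl3, from 0.00417 to 0.098 for Rps27l to Rps27 and from 0.13 to 0.199 for Rps4l to Rps4x. Calls of Rps28, Rps12 and Rpl41 were lost in 13, 10 and 5 of the 27 alternatives, with adjusted p up to 0.174, 0.264 and 0.103.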

Other observations

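The members were spread over 19 chromosomes, with 14 on chromosome 7, 8 on chromosome 17 and 4 on the X chromosome.

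Short genes as a whole lay slightly below long ones under TMM. The median log2 fold change was -0.04 over 343 genes with a length of up to 500 bases and 0.03 over 2257 genes longer than 8000 bases. Of the 32 members from 1001 to 2000 bases long the median was -0.07, and over all 2302 genes of that length it was -0.03. With the trend on gene length removed, the median over the 81 members was -0.04, against -0.07 without that step. Spearman's correlation of the log2 fold change with length was 0.23 across the 76 members other than paralogues and 0.096 across all genes tested, as a description across genes that share libraries. The median length was 1730 bases in the members and 3802.5 bases over all genes.

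Processed pseudogenes of ribosomal proteins were mostly too low to test. Of 274 in the files 38 passed the filter, 0 were called by edgeR, 1 was lower and 0 were higher at an unadjusted p under 0.05, and their median was -0.06.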
